A study of Mus musculus with 12 samples.

Results

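The gamma crystallin cluster of mouse chromosome 1 holds Cryga, Crygb, Crygc, Crygd and Cryge, and these 5 genes, of 43346 gene IDs in the deposited table, were followed across 12 RNA-seq libraries made from mouse ES (embryonic stem) cells. The members were chosen by measured values: Crygc and Crygd stood higher where the D2 form of a chromosome 13 segment was present, on either background, and the neighbouring family genes were listed with them. All comparisons rest on the libraries that chose the members, so the members' values are a description and carry no test. The libraries form 4 groups of 3. The parental inbred strains were C57BL/6J, called B6, and DBA/2J, called D2. B6-13D2 is the congenic line B6.D2-(rs30079041-rs51756099)/Bakr, with a D2 segment of chromosome 13 on the B6 background. D2-13B6 is the reciprocal line, D2.B6-(rs29224292-rs13469455)/Bakr in the sample labels and ending at rs51756099 in the series text, with a B6 segment on the D2 background. The cluster lies on chromosome 1, so its DNA is of the background strain in each congenic line by these labels, and this was not checked on genotypes here.

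All groups grew in serum medium with LIF, 1 µM PD0325901 (a MEK inhibitor) and 3 µM CHIR99021 (a GSK3 inhibitor). Each strain was 1 cell line according to the protocol, so strain and line cannot be told apart. The labels conflict here: B6 replicate 3 has a line name of its own, and for D2 the title and the cell line field name different lines. Titles call the libraries technical replicates and the protocol calls them independent cultures, so p-values measure the spread between these libraries, which may be technical. The columns of both congenic groups carry a prefix that the parental columns lack, and any batch this marks cannot be told apart from congenic against parental. Libraries held 22184196 to 36411799 counts. All 8 embryonic stem cell markers were detected in every group, and their summed levels are in CPM (counts scaled to a common library total). They were 5382 to 5637 CPM in B6-13D2, 4645 to 4964 in B6, 3900 to 3948 in D2-13B6 and 3201 to 3286 in D2. The 6 markers of fibroblast feeder cells, also detected in every group, summed to 14120 to 16900 CPM in D2, 9348 to 10160 in B6, 7702 to 8027 in D2-13B6 and 3082 to 3169 in B6-13D2.

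Crystallins are the abundant soluble proteins of the eye lens. The gamma crystallins are small monomeric members of the beta/gamma family that pack densely in lens fibre cells, and mutations in them cause cataract in mice and people. Their genes arose by tandem duplication, are close in sequence, and are transcribed in differentiating lens fibres under Sox, large Maf, Pax6 and Prox1 factors. Embryonic stem cells are not a tissue where they are known to act, and the levels below are low: none of the 5 members exceeded 4.14 CPM in any library.

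In GENCODE M21 (GRCm38) the 5 genes lie on the minus strand of chromosome 1 within 54.8 kb: Cryge at chr1:65048554-65051149, Crygd at chr1:65061872-65063452, Crygc at chr1:65071525-65073689, Crygb at chr1:65080219-65082288 and Cryga at chr1:65100389-65103373. Each main transcript has 3 exons and a coding length of 522 or 525 bp without the stop codon. Crygf, another gamma crystallin gene, lies 823.1 kb away on the opposite strand and was at 0 counts in all 12 libraries.

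Which members can be told apart by reads of 150 bases depends in part on their sequences, so the most alike pair is shown first. The coding sequences of Crygd and Cryge are 91.6% identical and do not differ in their first 153 bases. The lines give coding bases 141 to 290 of each, from the GENCODE M21 transcripts of the C57BL/6J reference and as long as 1 read, with the 12 bases that differ in capitals.
Crygd: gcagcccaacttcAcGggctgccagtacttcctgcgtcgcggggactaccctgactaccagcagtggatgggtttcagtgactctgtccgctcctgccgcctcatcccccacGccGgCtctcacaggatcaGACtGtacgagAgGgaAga
Cryge: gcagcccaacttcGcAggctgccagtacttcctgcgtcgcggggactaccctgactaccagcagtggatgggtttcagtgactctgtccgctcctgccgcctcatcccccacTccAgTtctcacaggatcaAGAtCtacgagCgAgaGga
Over whole transcripts, 31 of the 464 windows of 150 bases in Crygd also occur in Cryge without a difference. Crygb and Crygc share an unbroken run of 221 bases, and 72 of the 485 windows of Crygb occur in Crygc, although their coding identity is 83.7%. Every other pair of the 5 members had 0 such windows. Cryge and Crygf are 98.1% identical, yet their longest shared run is 134 bases and no window of 150 bases is common to both. The DBA/2J sequence was not used here.

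The deposited counts follow the same pairs. They are expected counts, in which a read that fits several genes is divided among them. Crygd and Cryge were each whole numbers (within 0.0001) in 1 of 12 libraries, and their sum was whole in 12 of 12. Crygb plus Crygc was whole in 12 of 12 libraries, against 10 of 12 for each alone. Cryga was whole in 10 of 12 libraries and became whole in 12 of 12 together with Gm28845, a gene that overlaps it, and D630023F18Rik. Levels of Crygd and Cryge are therefore also given as their sum, which does not depend on the division between them.

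The bases just before the transcription start are shown as a description of the members. The lines give positions -130 to -13 from the RefSeq start (GRCm38.p6, minus strand of the C57BL/6J reference), with the words CTTTTGTG and TATATA in capitals. Both words were picked after reading these promoters.
Cryga: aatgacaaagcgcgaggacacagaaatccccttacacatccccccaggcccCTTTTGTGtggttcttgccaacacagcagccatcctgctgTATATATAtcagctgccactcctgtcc
Crygb: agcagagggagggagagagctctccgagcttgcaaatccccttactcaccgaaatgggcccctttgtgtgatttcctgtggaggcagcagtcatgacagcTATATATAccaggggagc
Crygd: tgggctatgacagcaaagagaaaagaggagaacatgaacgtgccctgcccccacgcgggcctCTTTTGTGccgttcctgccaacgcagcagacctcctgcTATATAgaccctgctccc
Cryge: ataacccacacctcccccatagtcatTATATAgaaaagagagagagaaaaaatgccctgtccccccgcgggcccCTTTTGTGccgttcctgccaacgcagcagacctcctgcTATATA
They lie at chr1:65103376-65103493, chr1:65082303-65082420, chr1:65063453-65063570 and chr1:65051176-65051293. CTTTTGTG was found in the 250 bases before the start of Cryga, Crygc, Crygd, Cryge and Crygf and not in that of Crygb, on either strand, and in 1.21% of 32851 such windows of all genes. It began at positions -79, -66, -68 and -56 in Cryga, Crygc, Crygd and Cryge. TATATA, a form of the TATA box core, was found in all 6 genes and in 5.25% of all windows. The count of CG pairs in these windows was 6 for Crygd, Crygc and Cryga, 10 for Cryge and 3 for Crygb, against a median of 6 over all windows. The upstream bases of Crygc lie within an exon of a longer GENCODE transcript and are not printed. A match is a description of letters in the reference and not a binding site.

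Crygd was the most abundant member in every group except D2-13B6, where Cryge was level with it. Its expected counts were 74.6, 125.7 and 90.9 in D2 replicates 1 to 3 and 4.7, 6.5 and 3.0 in B6. The congenic libraries had 36.6, 33.9 and 34.6 in B6-13D2 and 31.4, 29.2 and 29.9 in D2-13B6. The D2 libraries were highest, the B6 libraries lowest, the congenic libraries lay between them, and the groups did not overlap. In D2 against B6, 31.1% of all tested genes were separated upwards in this way, and in D2-13B6 against B6, 27.7%. Scaled to library size, Crygd stood at 3.58 ± 0.52 CPM in D2 (SD, n = 3), 1.24 ± 0.087 in B6-13D2, 0.895 ± 0.108 in D2-13B6 and 0.203 ± 0.072 in B6.

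Crygc was nearly absent from B6 and low in D2-13B6. It had 33, 28.7 and 22.6 counts in D2 and 16, 23 and 22 in B6-13D2, against 6, 5 and 2 in D2-13B6 and 2, 1 and 0 in B6. Every library with the D2 segment lay above every library with the B6 segment, the contrast by which Crygc was chosen. Of all tested genes, 28.0% were separated upwards in B6-13D2 over B6 and 32.2% downwards in D2-13B6 over D2. Mean levels were 1.07 ± 0.289 CPM in D2 and 0.719 ± 0.146 in B6-13D2, against 0.124 ± 0.050 in D2-13B6 and 0.043 ± 0.044 in B6 (SD, n = 3 each).

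Cryge did not keep this order. Its counts were 53.6, 29.8 and 24.1 in D2-13B6, 32.4, 35.3 and 32.1 in D2, 10.4, 14.1 and 7.4 in B6-13D2, and 2.3, 1.5 and 0 in B6. D2-13B6 overlapped with D2, at 1.04 ± 0.374 and 1.27 ± 0.252 CPM, and both lay above B6-13D2 at 0.370 ± 0.096 and B6 at 0.054 ± 0.050 (SD, n = 3 each). Of all tested genes, 31.1% were separated upwards in D2 over B6, 27.7% upwards in D2-13B6 over B6 and 38.3% downwards in B6-13D2 over D2.

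Cryga, the member at the end of the cluster next to D630023F18Rik, had its highest mean in B6-13D2. It had 6.1, 15 and 8.1 counts in B6-13D2, 3, 3 and 5 in D2, 3, 0 and 0 in D2-13B6, and 0, 1 and 1 in B6. The lowest D2 library and the highest D2-13B6 library both held 3 counts, so these groups were barely separated. Scaled to library size, the lowest B6-13D2 library, at 0.212 CPM, lay below the highest D2 library, at 0.228 CPM, so those groups overlapped. The means were 0.340 ± 0.149 CPM in B6-13D2, 0.145 ± 0.074 in D2, 0.028 ± 0.025 in B6 and 0.027 ± 0.047 in D2-13B6. Crygb was at 0 in every library except D2 replicates 2 and 3, at 1.25 and 1.37 expected counts. No group of Crygb held more than the 3 counts that a count of 0 allows, so no fold is given.

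**Figure D1:**
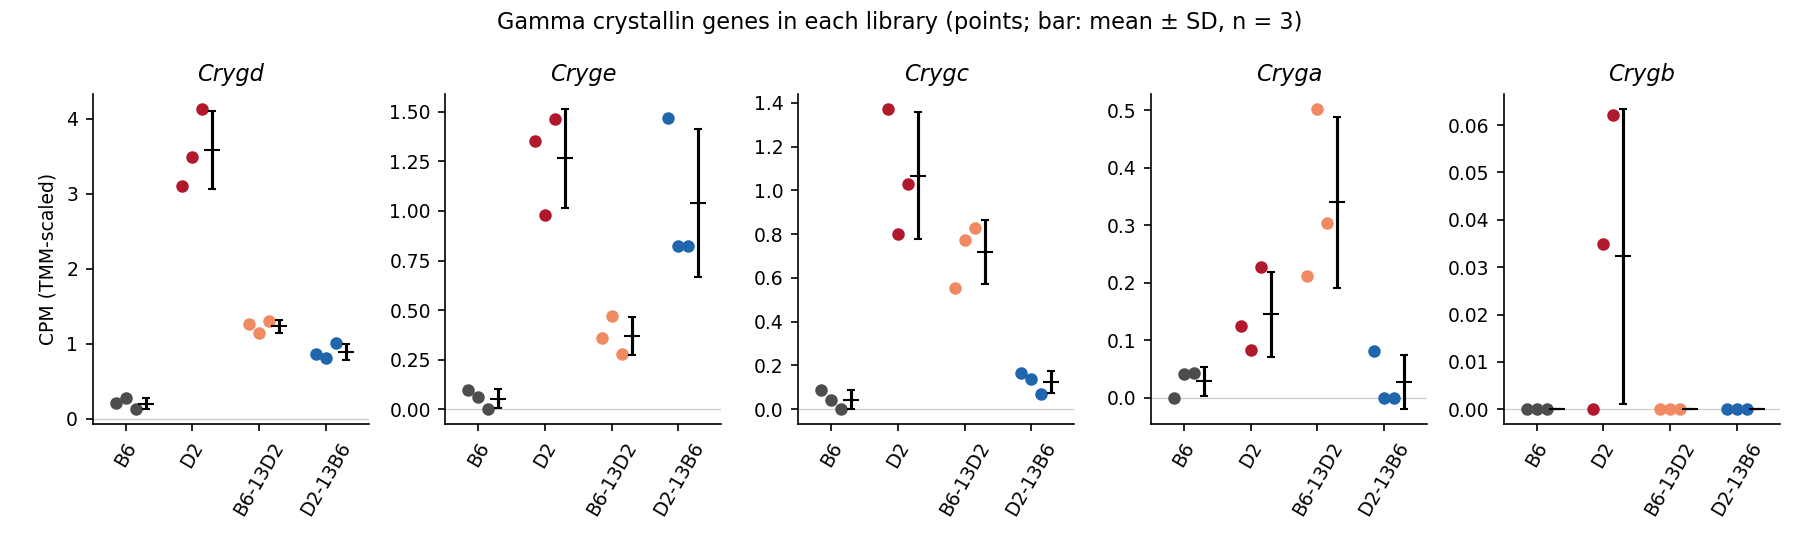
Level of each member in CPM (vertical axes, each with its own scale) in the 3 libraries of each group, as points, with the mean ± SD beside them. Crygd, Cryge and Crygc are lowest in B6, Cryge in D2-13B6 reaches the level of D2 (1.04 against 1.27 CPM on average), and Cryga has its highest mean in B6-13D2, where its libraries overlap with those of D2.

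Per kilobase of exon, which allows levels of different genes to be compared, the order in D2 was Crygd at 5.11 ± 0.744 CPM per kb, Cryge at 1.75 ± 0.348, Crygc at 1.36 ± 0.368, Cryga at 0.233 ± 0.119 and Crygb at 0.051 ± 0.049 (SD, n = 3). Crygd led clearly, while Cryge and Crygc differed by about their SD. In B6-13D2 the order was Crygd at 1.77 ± 0.124, Crygc at 0.914 ± 0.185, Cryga at 0.544 ± 0.238 and Cryge at 0.512 ± 0.133, the last pair within their SD. In D2-13B6 Cryge at 1.44 ± 0.517 and Crygd at 1.28 ± 0.154 did not differ beyond their SD, with Crygc at 0.157 ± 0.063 and Cryga at 0.044 ± 0.076. As for the makeup of the cluster, Cryge gave 50.3% of the summed counts of the 5 members in D2-13B6, 20.4% in D2, 16.3% in B6 and 14.0% in B6-13D2. Cryga gave 12.8% in B6-13D2, 8.7% in B6, 2.2% in D2 and 1.4% in D2-13B6. The B6 shares rest on 23 counts. These shares were not tested.

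The parental lines were compared with the same D2 and B6 libraries that chose the members, and that choice favours a high D2 and a low B6, so the values are a description with no test. Crygc, Crygd and Cryge passed the filter on low counts, through the groups where they are high, and Cryga and Crygb did not. Of the 17148 genes tested, 29.8% were called higher in D2 and 30.3% lower. The log2 change of D2 over B6 was 4.13 (SE 0.27) for Crygd, 4.33 (SE 0.55) for Cryge and 4.49 (SE 0.57) for Crygc. B6 held 3 counts of Crygc and 4 of Cryge in all, so the ratio of summed counts carries a wide counting interval: 23.9 (exact 95% interval 7.90 to 118.2) for Crygc and 21.3 (8.08 to 79.8) for Cryge, against 17.7 (10.4 to 32.9) for Crygd. The Crygc value was 5.38 without B6 replicate 1. In Cryga, 11 counts in D2 stood against 2 in B6, a ratio of 4.69 (1.02 to 43.6). These intervals cover counting error only.

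B6-13D2 was compared with D2, which carries the same segment on the other background. Crygd was at a lower level in B6-13D2, with a log2 change of -1.52 (SE 0.19), and so was Cryge, with -1.76 (SE 0.38). The libraries did not overlap for either, a separation downwards that 38.3% of genes had. Crygc had a log2 change of -0.56 (SE 0.34), and its libraries overlapped.

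D2-13B6 was compared with B6, which carries the same B6 segment. The log2 change was 4.09 (SE 0.55) for Cryge and 2.12 (SE 0.32) for Crygd. The libraries did not overlap for either, a separation upwards that 27.7% of genes had. Crygc had a log2 change of 1.47 (SE 0.79), and its libraries overlapped. It was 2.35 without B6 replicate 1 and ranged from 0.93 to 2.35 with single libraries left out. Summing Crygd and Cryge gave 2.89 in this comparison, over 1.5 times the fold of Crygd alone, since the Cryge change was larger. The part of read division was not tested.

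With the D2 segment in place of the B6 segment on the B6 background (B6-13D2 against B6), Crygc had a log2 change of 3.93 (SE 0.60), Crygd of 2.61 (SE 0.31) and Cryge of 2.57 (SE 0.66). No library of one group overlapped with the other for any of these, and 28.0% of genes showed such a separation upwards. The ratio of summed counts was 16.7 (exact 95% interval 5.45 to 83.2) for Crygc, 6.16 (3.51 to 11.7) for Crygd, 6.57 (2.33 to 25.6) for Cryge and 11.9 (3.01 to 102.9) for Cryga. The Crygc log2 change was 4.82 without B6 replicate 1.

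On the D2 background the reverse exchange was made: D2-13B6 against D2 had log2 changes of -3.02 (SE 0.43) for Crygc, -2.01 (SE 0.20) for Crygd and -0.24 (SE 0.32) for Cryge. Crygc and Crygd were lower with no overlap of libraries, while 32.2% of genes separated downwards. Cryge overlapped. The ratio of D2 to D2-13B6 counts was 8.05 (4.46 to 15.7) for Crygc, 4.03 (3.17 to 5.16) for Crygd and 4.57 (1.21 to 25.5) for Cryga. The sum of Crygd and Cryge gave -1.31, a fold smaller than that of Crygd alone by over 1.5 times. Members Crygc and Crygd were chosen for their direction in both exchanges, so nothing is read from their direction here. Of all 17148 genes tested, 3.02% were called higher with the D2 segment on both backgrounds and 4.31% lower.

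**Figure D2:**
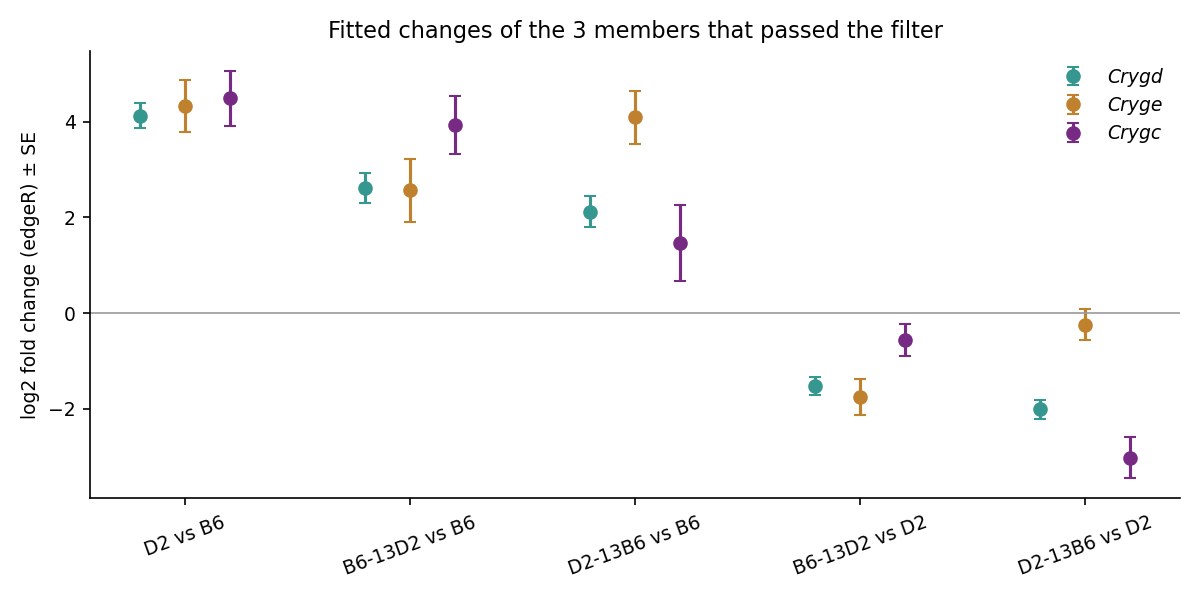
Fitted log2 change (vertical axis) with its SE for Crygd, Cryge and Crygc in 5 comparisons. The comparisons of B6-13D2 with B6 and of D2-13B6 with D2 chose the members. Cryge stays near 0 in D2-13B6 against D2 (-0.24), where Crygc reaches -3.02.

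Cryge made up a larger part of the pair in D2-13B6. Its share of Crygd plus Cryge was 63.1% (Wilson 95% interval 52.9 to 73.0, 85 counts), 50.5% (38.4 to 63.2) and 44.7% (32 to 57.6) in the 3 libraries. The shares were 30.3%, 21.9% and 26.1% in D2 and 22.1%, 29.3% and 17.7% in B6-13D2. The lowest D2-13B6 share lay above the highest of D2 and of B6-13D2. B6 held only 3 to 8 counts of the pair per library, with shares of 0% to 32.2%. The pair summed to 4.84 ± 0.654 CPM in D2, 1.93 ± 0.358 in D2-13B6, 1.61 ± 0.021 in B6-13D2 and 0.257 ± 0.112 in B6 (SD, n = 3). The ratio of Crygd to Cryge level was 2.92 in D2 and 3.45 in B6-13D2 per kb, and 0.89 in D2-13B6. How reads were divided between the pair was set by the authors' processing, and its part in these shares was not tested.

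**Figure D3:**
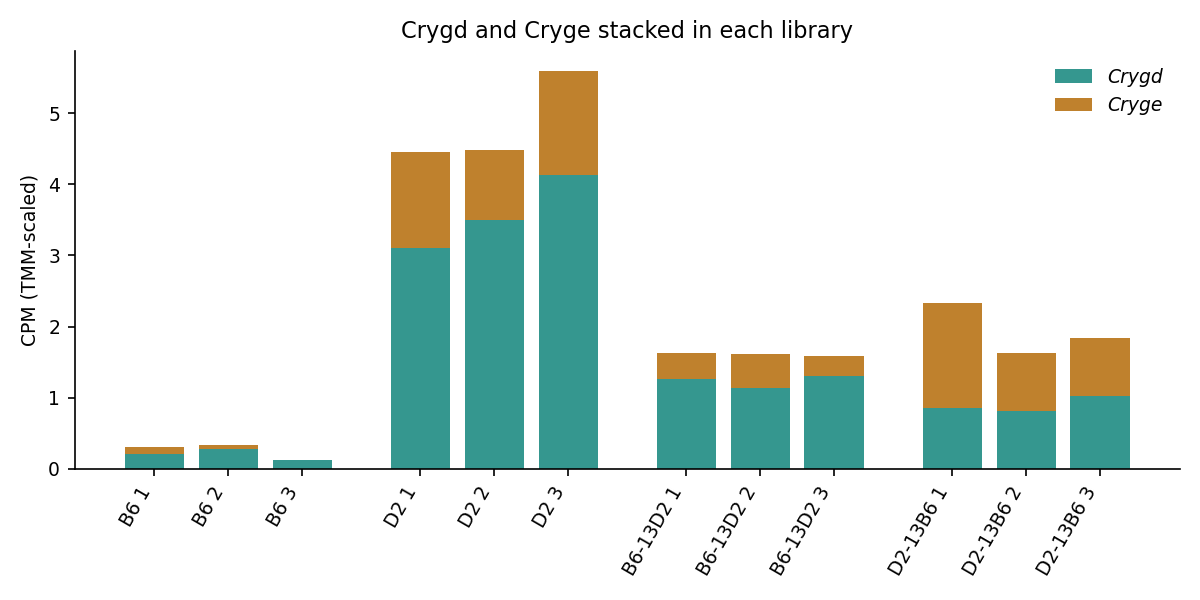
Crygd and Cryge in CPM (vertical axis), stacked for each of the 12 libraries. The whole bar does not depend on how reads were divided, and the Cryge part is largest in the D2-13B6 libraries (44.7% to 63.1% of the bar).

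The feeder marker sums given above fell in the order D2, B6, D2-13B6, B6-13D2, whereas the summed level of the 5 members was 6.09 ± 0.771 CPM in D2, 2.67 ± 0.251 in B6-13D2, 2.08 ± 0.432 in D2-13B6 and 0.329 ± 0.137 in B6 (SD, n = 3). D2 was highest in both, and the orders differ in the other groups. Of the 6 feeder markers, 6 were called higher in D2 than in B6 (median log2 change 0.84), beside 29.8% of all tested genes. In B6-13D2 relative to D2, 6 were called lower (median -2.31), beside 38.0%. In D2-13B6 relative to D2, 5 were called lower (median -0.89), beside 29.7%, and in B6-13D2 relative to B6, 6 were (median -1.52), beside 32.9%. In D2-13B6 relative to B6, 3 were called higher and 3 lower. Of the 17148 genes tested, 24.5% were called higher there and 10120 in either direction. The feeder markers' median was -0.07, beside -0.06 over all tested genes. The part of feeder cells in the members' levels was not tested. In bulk RNA, fewer cells of a type and less RNA per cell cannot be told apart. The 5 markers of neural progenitors, Pax6 among them, summed to 62.3 to 63.9 CPM in D2, 47.4 to 48.4 in D2-13B6, 45.9 to 49.9 in B6 and 35.4 to 36.7 in B6-13D2, and those of primitive endoderm to 6.24 to 15.1. The 8 lens markers summed to 1.57 to 2.78 CPM, and most were detected. At 0 counts were Crybb2 in B6, Crybb2 and Lim2 in D2, Cryaa, Crybb2 and Foxe3 in B6-13D2, and none of the 8 in D2-13B6.

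Among the genes next to the cluster, Akr1cl, an aldo-keto reductase gene 15.8 kb on the Cryge side, had low counts and was also lowest in B6. Its counts were 22, 29.6 and 31.7 in D2, 28, 25.9 and 21 in D2-13B6, 10, 14 and 22.7 in B6-13D2, and 2, 3 and 0 in B6. Scaled to library size, the B6 libraries lay below all others. Those of D2-13B6, at 0.71 to 0.77 CPM, lay just below those of D2, at 0.82 to 1.44 CPM. Such a separation downwards was found in 32.2% of all tested genes. The B6-13D2 libraries overlapped with both. It rose in D2 against B6 (log2 change 3.80, SE 0.57, adjusted p = 1.67e-05 in edgeR) and in B6-13D2 against B6 (2.88, SE 0.62, adjusted p = 0.000641 in edgeR), and was not called in D2-13B6 against D2 (-0.51, SE 0.36, adjusted p = 0.237 in edgeR). With the segment shared, it rose in D2-13B6 against B6 (3.28, SE 0.59, adjusted p = 0.000109 in edgeR), where 24.5% of all tested genes were called higher, and fell in B6-13D2 against D2 (-0.91, SE 0.38, adjusted p = 0.0386 in edgeR). Its counts became whole in 12 of 12 libraries with those of Gm8550, with which it shares reads.

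D630023F18Rik, 1.9 kb on the Cryga side, was higher with the D2 segment on both backgrounds and on the B6 background with either segment. It averaged 3.79 ± 0.262 CPM in B6-13D2, 2.13 ± 0.309 in D2, 2.05 ± 0.225 in B6 and 1.28 ± 0.380 in D2-13B6 (SD, n = 3). It rose with the D2 segment on the B6 background (log2 change 0.89, SE 0.19, adjusted p = 0.000687 in edgeR) and fell with the B6 segment on the D2 background (-0.77, SE 0.21, adjusted p = 0.00424 in edgeR). With the segment shared, it rose in B6-13D2 against D2 (0.81, SE 0.19, adjusted p = 0.00079 in edgeR) and fell in D2-13B6 against B6 (-0.69, SE 0.21, adjusted p = 0.00999 in edgeR). It was not called between D2 and B6 (0.08, SE 0.21, adjusted p = 0.762 in edgeR). The counts of Cryga were whole in 12 of 12 libraries when summed with those of Gm28845 and D630023F18Rik. Gm28845 overlaps both, so direct sharing of reads between Cryga and D630023F18Rik is not shown. The Cryga counts are uncertain.

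Of 38 annotated genes within 1 Mb of the cluster, 13 were tested. With the D2 segment on the B6 background, 5 rose and 5 fell, beside 25.4% and 32.9% of all tested genes. With the B6 segment on the D2 background, 3 rose and 6 fell, beside 27.6% and 29.7%. Idh1, a cytosolic isocitrate dehydrogenase, and D630023F18Rik were called higher with the D2 segment on both backgrounds, that is 2 of 13 against 3.02% of all genes. Plekhm3 and Rpl10a-ps1 were called lower with it on both, 2 of 13 against 4.31%. Idh1 changed by a log2 change of 0.57 (SE 0.04) and -0.57 (SE 0.04) in the 2 exchanges.

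**Figure D4:**
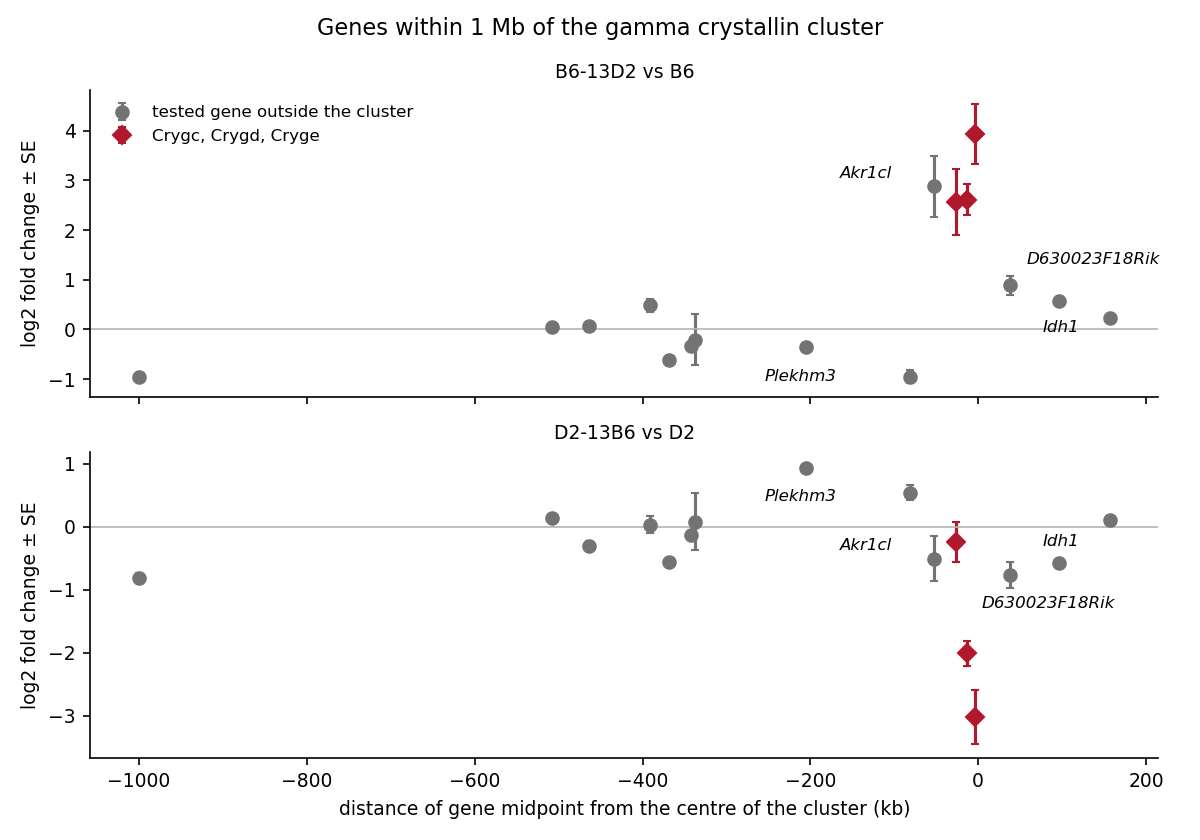
Log2 change with SE (vertical axes) of tested genes within 1 Mb, by distance of the gene's midpoint from the centre of the cluster in kb, for each exchange of the segment. Crygc, Crygd and Cryge are diamonds, and in B6-13D2 against B6 the neighbour Akr1cl (2.88) lies between Crygc (3.93) and the pair of Crygd (2.61) and Cryge (2.57), while the other neighbours lie below all 3.

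Few other crystallin genes were expressed. Only 2 of 11 other crystallin genes passed the filter, and Cryab, a small heat shock protein of the alpha crystallin type, was the one called in each comparison. It averaged 95.3 ± 4.04 CPM in D2, 75.5 ± 4.62 in B6, 49.7 ± 1.21 in D2-13B6 and 24.5 ± 1.28 in B6-13D2 (SD, n = 3). It fell with the segment exchange on both backgrounds, by a log2 change of -1.62 (SE 0.05, adjusted p = 3.11e-14 in edgeR) in B6-13D2 against B6 and -0.94 (SE 0.05, adjusted p = 2.26e-11 in edgeR) in D2-13B6 against D2. Both congenic lines were thus below both parental lines. Crygf, Crybb2 and Cryba2 were at 0 counts in B6 and D2.

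Genes for lens transcription factors and their partners were mostly expressed: 18 of 20 passed the filter. Between the parental lines, 7 were higher in D2 and 1 was lower, with a median log2 change of 0.41 beside 0.01 over all tested genes, of which 29.8% were called higher and 30.3% lower. With the segment exchanged on the B6 background, 4 rose and 11 fell (median -0.40 against -0.04), beside 25.4% and 32.9% of all tested genes. On the D2 background 3 rose and 6 fell (median -0.16 against 0.00), beside 27.6% and 29.7%, so the falls there were near the share of all genes. Other marker lists moved in the same comparisons: on the B6 background, 6 of 6 feeder markers fell, and of 5 neural progenitor markers 1 rose and 4 fell (median -1.34). On the D2 background, 5 of 6 feeder and 4 of 5 neural markers fell (median -1.08 for the latter). Their part in the lens regulator counts was not tested. Pitx3, a lens homeobox gene, had the largest called rise in both exchanges, with log2 changes of 2.14 (SE 0.51) and 1.34 (SE 0.42). It went from 0.101 ± 0.027 CPM in B6 and 0.189 ± 0.046 in D2 to 0.457 ± 0.175 and 0.492 ± 0.133. Pax6, a master regulator of eye development, had the largest called fall in both, -2.79 (SE 0.59) and -2.29 (SE 0.40). Its mean level was 0.998 ± 0.256 CPM in D2, 0.430 ± 0.082 in B6, 0.197 ± 0.007 in D2-13B6 and 0.057 ± 0.052 in B6-13D2. Pitx3 rose and Pax6 fell in either congenic line relative to the parental strain of its background. The group means of Pax6, Cryab and Tdrd7 stood in the order D2, B6, D2-13B6, B6-13D2, which is also that of the feeder sums. For Tdrd7, B6 and D2-13B6 were within their SD, at 14.4 ± 0.997 and 14.0 ± 0.239 CPM. Pitx3, and Epha2 and Mip described below, stood in other orders. The part of feeder cells in these levels was not tested.

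Of 12 genes of lens fibre cells, 5 were tested. The exchange on the B6 background left 0 higher and 2 lower, and that on the D2 background 2 higher and 1 lower, counts too small to read against the shares of all genes just given. Epha2, an ephrin receptor, went from 259.3 ± 7.68 CPM in B6 to 156.7 ± 0.139 in B6-13D2 (log2 change -0.73, SE 0.03) and from 184.6 ± 2.87 in D2 to 224.2 ± 1.96 in D2-13B6 (0.28, SE 0.03). It was lower with the D2 segment on both backgrounds. Tdrd7, a protein of RNA granules linked to cataract, fell in both congenic lines (-1.24 and -0.49, SE 0.07 and 0.06). Mip, the lens water channel, was called in D2-13B6 against D2 (0.70, SE 0.27) and not in B6-13D2 against B6 (-0.32, SE 0.25). Its group means were low, from 0.663 CPM in D2 to 1.65 in B6, and its counts were not whole in every library.

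The tested genes outside the cluster whose profile was most like that of Crygd were found by the root mean square difference of log2 CPM, each gene centred on its own mean, over all 12 libraries. H2-Eb1, an MHC class II chain gene on chromosome 17, came first at 0.459, followed by Obox4-ps18 at 0.523, Obox4-ps22 at 0.541 and Obox4-ps20 and Obox4-ps19 at 0.570, against a median of 1.41 over 17145 genes. H2-Eb1 stood at 30.7 ± 1.18 CPM in D2, 23.9 ± 0.324 in B6-13D2, 8.50 ± 0.547 in D2-13B6 and 2.90 ± 0.402 in B6 (SD, n = 3). The Obox4 genes are pseudogenes of 1 homeobox family on chromosome 7 with divided reads, and Obox4-ps19 and Obox4-ps20 have the same values, so they do not stand for separate observations. Within the cluster, Crygc ranked 11th at 0.679 and Cryge 27th at 0.785. This is a description over libraries that share their groups.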

How the data were processed

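RNA was measured by sequencing in 12 libraries. The authors deposited expected counts per Ensembl gene ID, which the file's title credits to EMASE, a method that divides reads fitting several genes, so that near-identical genes trade reads. The submitters' processing notes name Bowtie 1.0.0, edgeR 3.34.1 and mm10, with no role. The annotation release, filters and strand use are not given in the sources used here, so overlapping genes are uncertain. Every column mapped to a library (0 left out). GENCODE M21 gave symbols and positions for 42462 of 43346 IDs, and RefSeq the promoters.

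After rounding, the expected counts were tested with edgeR 4.0.16 under R 4.3.3. Genes were kept by filterByExpr per group (minimum count 10), followed by TMM scaling, a quasi-likelihood fit of 4 group means to all 12 libraries, and Benjamini-Hochberg adjustment at 0.05 over the 17148 genes tested. Called genes are those past that threshold, and a log2 change is the fitted log2 fold change of the first group named over the second. SEs are the absolute log2 fold change over the square root of F. CPM use TMM-scaled library sizes. The script was tested on simulated data. Centred log2 CPM used a prior count of 2. The ratios of summed counts carry exact 95% intervals, and shares Wilson 95% intervals, both for counting error only, as reads are not independent molecules. At these depths 3 counts in a group of 3 libraries equal 0.029 to 0.043 CPM.

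Groups and replicate numbers came from the titles. The alternatives were DESeq2 1.42.0, RLE size factors, no filter, a replicate block, only the libraries compared, each library left out, the cluster summed, and no length scaling; the sum of Crygd and Cryge was added after seeing the data. Named genes were the members, Crygf, the nearest tested gene on each side, the highest and lowest called gene of each list in both segment exchanges, and the 5 genes nearest to Crygd in profile. Idh1, Plekhm3 and Rpl10a-ps1 were named after their values were seen. The members and lists were chosen with earlier results of these data known.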

Additional observations from a re-analysis of the deposited data

Results flagged for a closer look

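The contrast of the segment effect between backgrounds equals the congenic lines together minus the parental lines together, so it cannot be told apart from anything the congenic libraries share. It was called by edgeR for 64.5% of all 17148 genes tested and for 9 of 16 named genes outside the cluster. All but the nearest neighbours of the cluster, Akr1cl and D630023F18Rik, were named from their values in the exchanges that make up this contrast or from their profile over the groups, so nothing is read from that count and no p is given for them. The contrast is not given for members, whose rule used its parts.

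On the log2 scale the contrast was -2.56 for Cryab, -5.08 for Pax6, -1.74 for Tdrd7 and -0.45 for Epha2. It was 3.48 for Pitx3, 2.37 for Akr1cl (edgeR adjusted p = 0.00969) and 1.19 for H2-Eb1. For the neighbours Plekhm3 and Rpl10a-ps1 it was 0.57 and -0.41.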

How the results depend on the processing

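All 101 counts of called genes under the alternatives were within 1.5 times the reported count. RLE size factors raised the share of calls that were higher from 43.5% to 52.0% in B6-13D2 over B6 (DESeq2 51.9%) and from 49.6% to 56.7% in D2 over B6 (DESeq2 56.0%), so which direction was more frequent depends on the scaling. All 263 recomputed member log2 fold changes kept their direction, and none carries a test here. In 9, the value moved by more than the replicate SD. The cluster summed gave 3.00 for B6-13D2 over B6, -1.53 for D2-13B6 over D2, -1.18 for B6-13D2 over D2 and 2.65 for D2-13B6 over B6, where Crygd alone gave 2.61, -2.01, -1.52 and 2.12. Crygd and Cryge summed gave 2.89 for D2-13B6 over B6 and -1.31 for D2-13B6 over D2. Leaving out each library, Crygc ranged from 3.39 to 4.82 for B6-13D2 over B6, from 3.95 to 5.38 for D2 over B6 and from 0.93 to 2.35 for D2-13B6 over B6. Without a filter, Cryga had a log2 fold change of 2.12 in D2 against B6. With only the libraries compared, Cryge (B6-13D2 over B6) and Crygc (D2-13B6 over B6) were filtered out and gave no value. With replicate numbers as a block, D2 against B6 gave 10167 called genes instead of 10295. The numbers do not pair the libraries: deviations of same-numbered libraries had correlations of -0.125 to 0.068 over 18 pairs, and 4 of 12 libraries correlated best with their own number. Depth limits Cryga, Crygb and every B6 value, which rest on a few counts.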
